A study of Mus musculus with 36 samples.

Results

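Hypothalamic RNA of mice injected with tumour necrosis factor-α (TNF group) was set directly against that of mice injected with the high dose of interleukin-6 (IL-6 High group), without the saline group. The comparison held 11 of the 36 arrays of the series, 5 from TNF and 6 from IL-6 High, chosen by the treatment in the sample titles. Male C57BL/6 mice, for which the labels name no genetic change and no age, received an intraperitoneal injection of 50 µl with either 15 pg TNFα or 800 pg IL-6 before the dark phase, and the hypothalamus was taken 5 h later. Each array was hybridised with RNA of a single mouse. Mice of both groups had received a cytokine, so a response of equal size to TNFα and IL-6 gave no difference here. The sample titles call the TNF dose low, while the study describes a single TNFα dose, and the tissue was a dissected block in which fewer cells of a type and less RNA per cell cannot be told apart.

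TNFα binds the receptors encoded by Tnfrsf1a and Tnfrsf1b and acts mainly through the IκB kinase complex and the transcription factor NF-κB. IL-6 binds its receptor (Il6ra) together with gp130 (Il6st), and Janus kinases then phosphorylate the transcription factor STAT3. Each pathway switches on its own inhibitor, Nfkbia (IκBα) downstream of NF-κB and Socs3 downstream of STAT3, and the mRNA of these inhibitors is widely used as a readout of cytokine signalling. In the hypothalamus both cytokines are known to lower food intake, which is governed there by the peptides NPY and AgRP, which promote eating, and by the products of Pomc and Cartpt, which restrain it.

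The promoters of the 2 inhibitor genes are shown because the mRNA of these genes is the readout of each pathway. The sequences are the 250 bases before the RefSeq transcription start (build GRCm38.p6), read in the direction of the gene. Capitals mark a STAT element (TTCNNNGAA) in Socs3 (chr11:117969367-117969616, minus strand) and the NF-κB elements (GGNNTTTCC) in Nfkbia (chr12:55492648-55492897, minus strand), searched on both strands.
Socs3: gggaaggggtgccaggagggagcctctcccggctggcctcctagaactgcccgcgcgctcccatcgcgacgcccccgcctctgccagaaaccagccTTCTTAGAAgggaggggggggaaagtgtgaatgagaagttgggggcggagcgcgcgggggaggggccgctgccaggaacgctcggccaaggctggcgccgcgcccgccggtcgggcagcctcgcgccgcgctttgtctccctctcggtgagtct
Nfkbia: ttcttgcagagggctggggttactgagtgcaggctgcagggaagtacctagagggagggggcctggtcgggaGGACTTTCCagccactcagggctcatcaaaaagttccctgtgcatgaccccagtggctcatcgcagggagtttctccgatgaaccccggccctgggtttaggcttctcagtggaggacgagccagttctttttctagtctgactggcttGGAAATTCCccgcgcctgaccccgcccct
The Socs3 window held 1 STAT element, 154 to 146 bases before the start, and the Nfkbia window held 2 NF-κB elements, the nearer of them 29 to 21 bases before the start. Of 32851 promoters of this length, 7.02% held a STAT element and 4.93% an NF-κB element. Of 46 genes looked up, those chosen for their function and those of smallest p, 37 had a promoter in the table, of which 4 held a STAT element (Socs3, Tnfrsf1a, Tnfrsf1b and Rsl1) and 3 an NF-κB element (Nfkbia, Il6 and Rsl1). A match of letters is a description and not a sign of binding.

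The 11 arrays had similar value distributions, with medians between 5.53 and 5.69 log2 intensity, and their median correlation with the other arrays of the series was 0.980 to 0.988. The array of TNF replicate 4 was left out: its quartiles lay at 5.49 and 6.65, against 4.00 to 4.15 and 7.44 to 7.52 in the other 11, and its median correlation was 0.270. Hypothalamic genes were above the intensity minimum, as were most genes. Of 14 hypothalamic neuropeptide genes outside the feeding lists, 14 exceeded an intensity of 20 on at least 3 arrays, as did 20 of 21 hypothalamic transcription factor genes. So did 14606 of all 18820 genes, 17 of 18 cerebellar genes and 12 of 12 raphe genes, so these counts do not single out the hypothalamus. Markers of neighbouring regions were also present and differed between single arrays. Averaged over 12 genes of serotonergic raphe neurons, the log2 level ran from 5.02 to 6.38 in TNF and from 4.91 to 5.99 in IL-6 High, with TNF replicate 5 and IL-6 High replicate 4 highest. For 17 cerebellar genes the range was 6.17 to 7.71 in TNF, with TNF replicate 2 highest, and 6.13 to 6.67 in IL-6 High. For 9 striatal genes it was 7.44 to 8.72 in TNF, with TNF replicate 6 highest, and 7.36 to 7.54 in IL-6 High. For 11 pituitary genes it was 5.63 to 6.36 in TNF and 5.60 to 7.23 in IL-6 High, with IL-6 High replicate 1 highest.

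**Figure D1:**
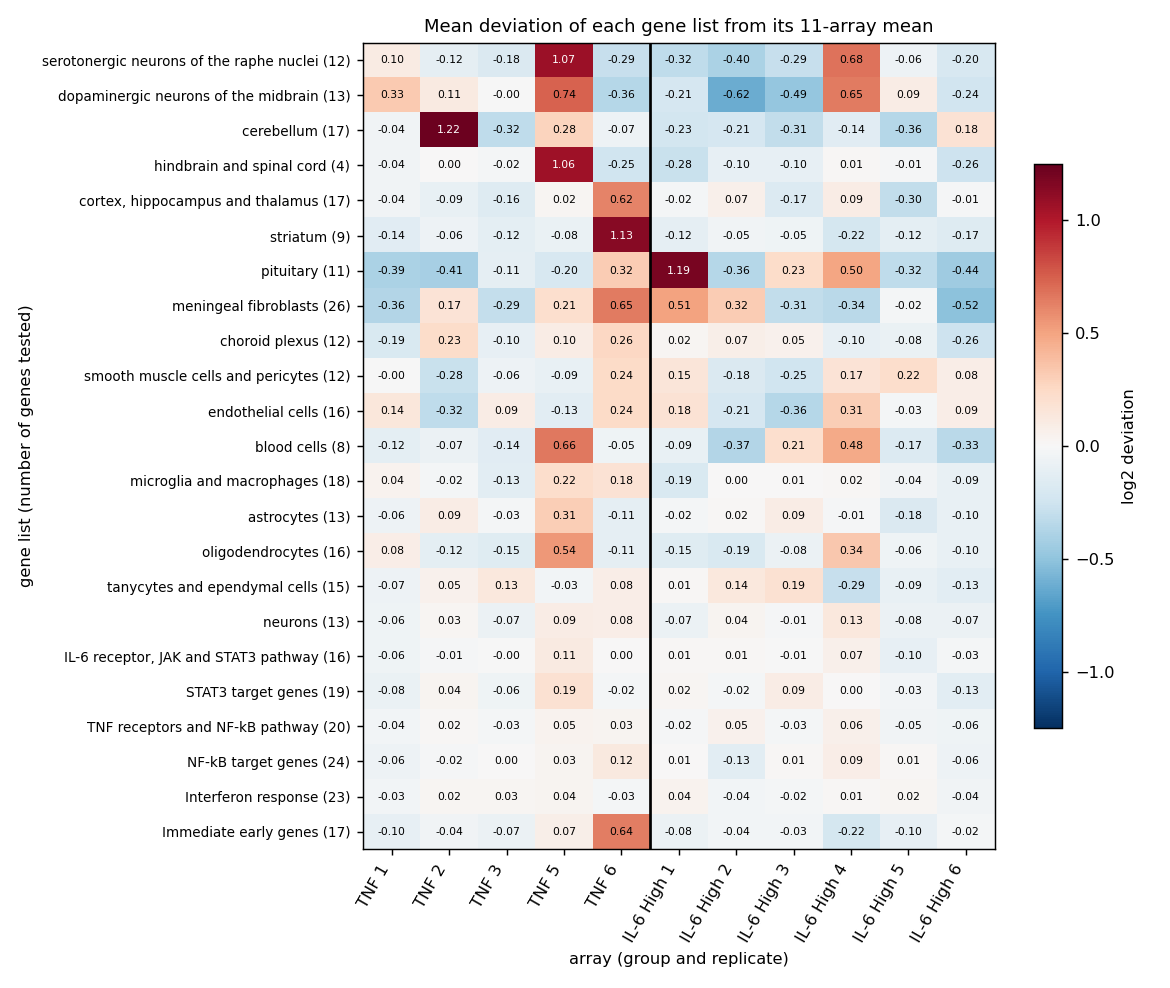
Mean log2 deviation of each gene list from its mean over the 11 arrays (rows, with the number of genes tested; columns, arrays by group and replicate; red above and blue below the mean). The deviation of raphe markers reached 1.07 in TNF replicate 5 and 0.68 in IL-6 High replicate 4, that of striatal markers 1.13 in TNF replicate 6, while the IL-6, TNF and interferon lists stayed between -0.13 and 0.19 on every array.

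No gene separated the 2 groups after correction for multiple testing. Of 14606 genes tested with limma, 0 passed a Benjamini-Hochberg adjusted p of 0.05 (0% of genes), and the smallest adjusted p was 1.00. At an unadjusted p under 0.05, 209 genes were higher in TNF (1.43%) and 189 higher in IL-6 High (1.29%), together 398, where a share of 0.05 of 14606 genes is 730.3. The median log2 difference, TNF minus IL-6 High, was 0.01, and 55.4% of genes had the higher mean in TNF. A fold of 1.5 between the group means was exceeded by 18 genes higher in TNF (0.123%) and by 3 higher in IL-6 High (0.0205%). The values of the groups did not overlap for 12 genes higher in TNF (0.0822%) and 21 higher in IL-6 High (0.144%). After centring each array on its median, the genes at an unadjusted p under 0.05 were 224 higher in TNF and 101 higher in IL-6 High.

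The arrays limited how large an undetected difference could be. Standard errors of the log2 differences had a median of 0.10, and the 95% interval of 14212 genes (97.3%) lay within a fold of 1.5 in either direction. For 14558 genes (99.7%) it lay within a fold of 2.

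**Figure D2:**
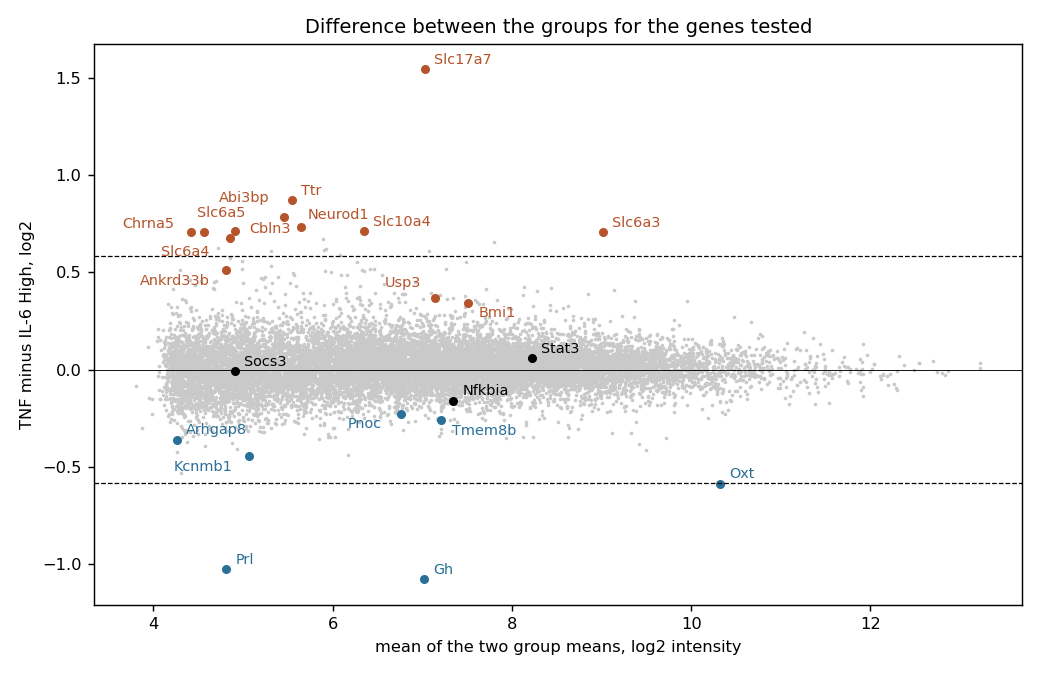
Log2 difference TNF minus IL-6 High (vertical) against the mean of the group means in log2 intensity (horizontal) for the 14606 genes tested; dashed lines mark a fold of 1.5. Genes named in the text are labelled in red where higher in TNF, in blue where higher in IL-6 High and in black for 3 cytokine pathway genes, which lie close to 0, and 21 genes lie beyond the dashed lines.

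The genes of the IL-6 and TNF pathways, like most genes tested, had nearly the same levels in both groups. Of 16 tested genes of IL-6 reception, Janus kinases and STAT3, 10 had the higher mean in TNF and 6 in IL-6 High, with a median log2 difference of 0.01, and 0 were at an unadjusted p under 0.05. The counts were 12 and 7 of 19 STAT3 target genes (median 0.01), 11 and 9 of 20 genes of TNF reception and NF-κB (median 0.00), 16 and 8 of 24 NF-κB target genes (median 0.03), and 13 and 10 of 23 interferon response genes (median 0.03), with 0 genes at an unadjusted p under 0.05 in each of these lists by limma. Over all genes, 1.43% were higher in TNF and 1.29% higher in IL-6 High at such a p, so 0 in lists of this size is not particular to these pathways. All 16 genes of the IL-6 list, all 20 of the TNF list and all 23 of the interferon list had a 95% interval within a fold of 1.5. So did 18 of 19 STAT3 targets and 22 of 24 NF-κB targets, against 97.3% of all genes. Without TNF replicate 5, 4 of 16 genes of the IL-6 list (median -0.03) and 8 of 19 STAT3 targets (median -0.03) had the higher mean in TNF.

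Socs3, the STAT3-induced inhibitor whose promoter is printed above, had log2 intensities of 4.69, 4.80, 4.97, 5.04 and 5.04 in TNF and a lowest, median and highest value of 4.70, 4.90 and 5.07 in IL-6 High. The ranges coincided almost fully, and the difference was -0.01 (SE 0.10, 95% interval -0.22 to 0.21; limma adjusted p 1.00). Nfkbia, the NF-κB-induced inhibitor, stood at 7.29, 7.44, 7.0, 7.23 and 7.39 in TNF and at 7.10, 7.42 and 7.82 (lowest, median and highest) in IL-6 High. Its difference was -0.16 (SE 0.13, 95% interval -0.43 to 0.11), and 3 IL-6 High arrays lay above all TNF arrays.

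Among the receptors, Il6ra differed by 0.01 (95% interval -0.17 to 0.19), the shared subunit Il6st by 0.08 (-0.08 to 0.24), Tnfrsf1a by -0.02 (-0.25 to 0.22) and Tnfrsf1b by -0.14 (-0.37 to 0.08). Stat3 differed by 0.06 (-0.16 to 0.28) and Ikbkg, the regulatory subunit of the IκB kinase complex, by -0.04 (-0.25 to 0.16). The adaptor Traf2 had the smallest p of the TNF list, with a difference of 0.22 (SE 0.12). Gfap, an astrocyte filament gene and STAT3 target, differed by 0.26 (SE 0.14), and its value in TNF replicate 5, 9.70, lay apart from 8.78 to 9.04 in the other TNF arrays. Irf1, an interferon and NF-κB target, differed by 0.20 (SE 0.11) and Oasl2, an interferon-induced gene, by -0.21 (SE 0.11). The acute-phase gene Lcn2 was the least precise of these genes, with a difference of 0.02 and a 95% interval of -0.77 to 0.81. The genes for the cytokines themselves were below the intensity minimum: over the 11 arrays Il6 lay between 1.72 and 2.37 and Tnf between 3.68 and 4.57 log2 intensity.

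**Figure D3:**
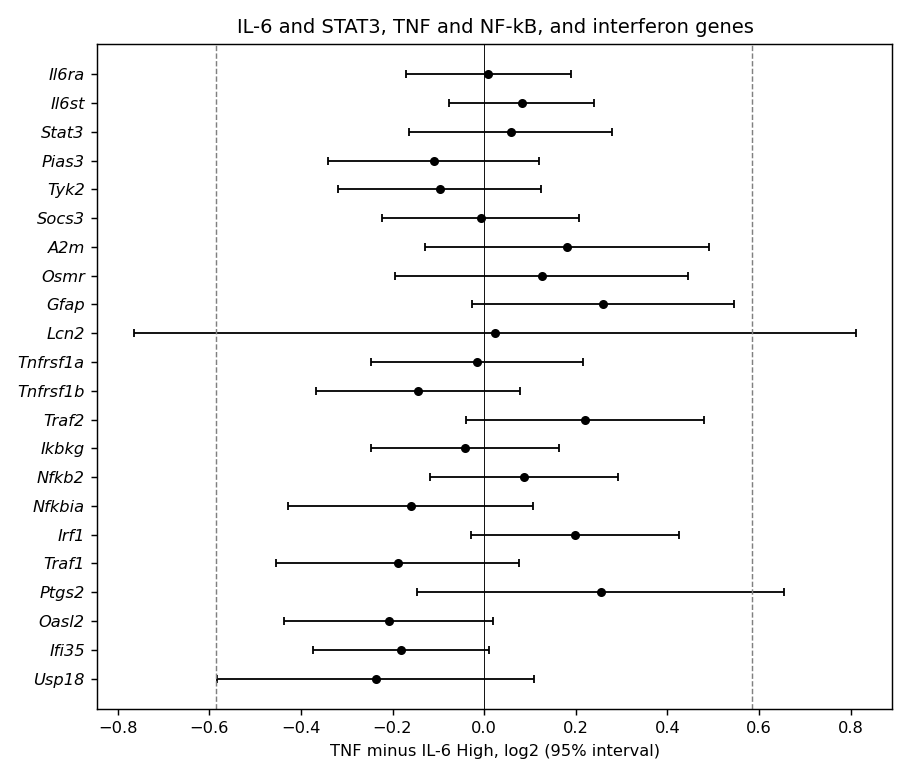
Log2 difference TNF minus IL-6 High (horizontal; points) with its 95% interval (bars) for 22 genes of IL-6 and STAT3, TNF and NF-κB, and interferon signalling; dashed lines mark a fold of 1.5. Every interval includes 0, and those of Lcn2 and Ptgs2 extend past a fold of 1.5.

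Of the neuropeptide genes, oxytocin had the largest difference. Oxt, which encodes the peptide of magnocellular and preautonomic neurons of the paraventricular and supraoptic nuclei, had log2 intensities of 10.12, 10.61, 10.01, 9.73 and 9.66 in TNF and a lowest, median and highest value of 10.02, 10.69 and 10.93 in IL-6 High. Of 6 IL-6 High arrays, 5 lay above 4 of the 5 TNF arrays, and the lowest, replicate 4, lay among them. The mean was lower in TNF by a log2 difference of -0.59 (SE 0.17, 95% interval -0.94 to -0.23, a fold just over 1.5), with an unadjusted p of 0.00283 and an adjusted p of 1.00 by limma. The difference was -0.48, -0.56, -0.67 and -0.88 within arrays sharing the leading letter of the array name, and ran from -0.73 to -0.50 when single arrays were left out. Without TNF replicate 5 and IL-6 High replicate 4, the arrays of highest raphe marker level, it was -0.63 (SE 0.14).

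Prepronociceptin (Pnoc) is the precursor of the opioid-like peptide nociceptin. Its groups did not overlap, as in 1 of the 14 genes of this list, against 0.144% of all genes higher in IL-6 High and 0.0822% higher in TNF. Pnoc stood at 6.62, 6.77, 6.68, 6.63 and 6.57 in TNF and 6.77, 6.88 and 7.0 (lowest, median and highest) in IL-6 High. The highest TNF and the lowest IL-6 High value were both 6.77 after rounding, and the difference was -0.23 (SE 0.08; unadjusted p 0.0093, adjusted p 1.00 by limma). Tac2, the neurokinin B precursor of arcuate neurons, differed by -0.35 (SE 0.16), and Vip, a peptide of the suprachiasmatic nucleus, by 0.37 (SE 0.14). In all, 3 of the 14 genes were higher in IL-6 High and 1 in TNF at an unadjusted p under 0.05, against 1.29% and 1.43% of all genes, and the median difference of the 14 was -0.05. Outside this comparison, mean Oxt was 10.22 ± 0.41 with the low dose of IL-6 alone, 10.01 ± 0.50 with that dose and TNFα, and 9.98 ± 0.58 with TNFα and the high dose (SD over 6 arrays each).

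**Figure D4:**
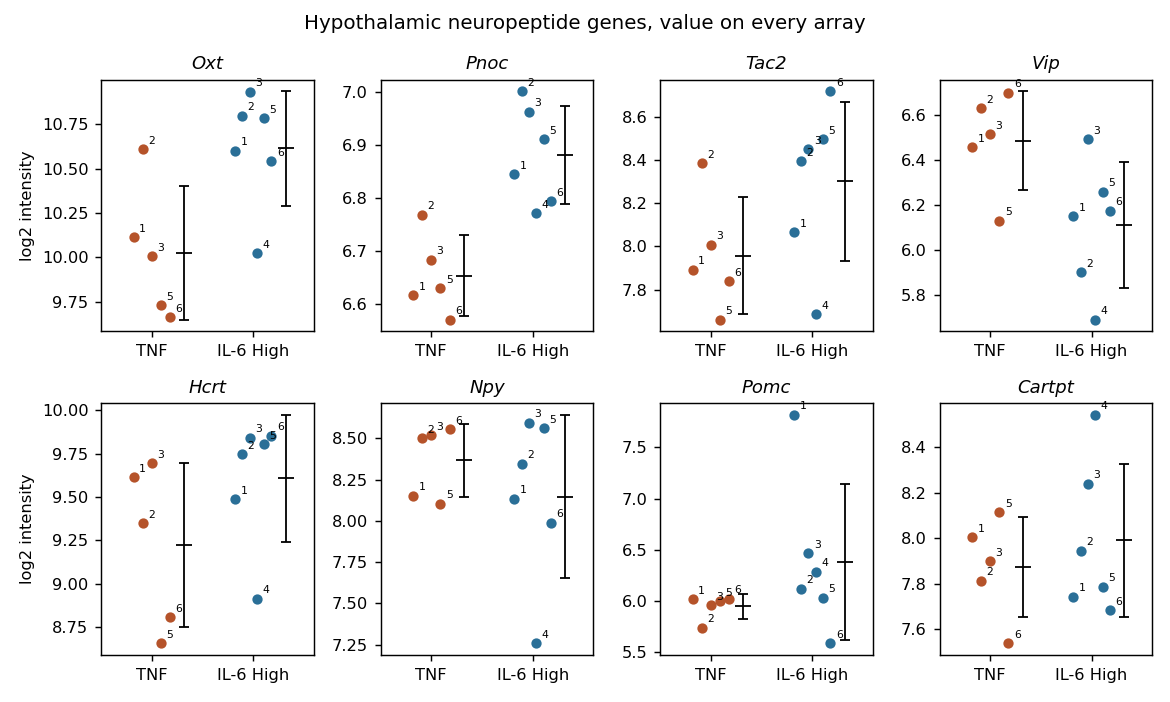
Log2 intensity (vertical) of 8 neuropeptide genes on each TNF (red) and IL-6 High (blue) array, numbered by replicate, with the group mean ± SD (black). Oxt, Pnoc and Tac2 had lower and Vip higher TNF means, and the groups overlapped for every gene shown but Pnoc.

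Of the genes of the feeding circuits, 0 passed the adjusted threshold of limma and 1 of 29, Mc3r, was higher in IL-6 High at an unadjusted p under 0.05, against 1.29% of all genes, with 0 of 29 higher in TNF, against 1.43%. Npy, the orexigenic peptide of the arcuate nucleus, stood at 8.15, 8.50, 8.52, 8.10 and 8.56 in TNF and 7.26, 8.24 and 8.59 (lowest, median and highest) in IL-6 High, a difference of 0.22 (SE 0.19) that shrank to 0.04 without IL-6 High replicate 4. Pomc, the precursor of melanocortin peptides in the arcuate nucleus and of ACTH in the pituitary, stood at 6.02, 5.74, 5.96, 6.00 and 6.03 in TNF and 5.59, 6.20 and 7.82 in IL-6 High. Its difference of -0.44 (SE 0.27) was -0.15 without IL-6 High replicate 1, the array of highest pituitary marker level. Those markers include Pomc itself. Cartpt differed by -0.12 (SE 0.14), and Hcrt, the orexin precursor of the lateral hypothalamus, by -0.38 (SE 0.20). The melanocortin receptor Mc3r differed by -0.31 (SE 0.11, unadjusted p 0.0123 by limma). Of 11 orexigenic genes tested 5 had the higher mean in TNF (median difference -0.00), and of 18 anorexigenic genes 7 did (median -0.03). Two-sided exact permutation tests over the 462 arrangements of the arrays gave p = 0.416 for Npy, 0.191 for Pomc and 0.545 for Cartpt. The smallest p such a test can give is 0.00433, and over the 21 genes tested in this way it ranged from 0.178 for Tnfrsf1b to 0.961 for Lcn2.

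The serotonin genes Tph2 and Slc6a4 were high on single arrays. Tph2, the rate-limiting enzyme of neuronal serotonin synthesis, stood at 4.95, 3.79, 4.33, 8.47 and 4.16 in TNF and 3.86, 4.11 and 6.86 (lowest, median and highest) in IL-6 High. The serotonin transporter Slc6a4 stood at 4.80, 4.18, 3.95, 8.58 and 4.45 in TNF and 3.95, 4.05 and 7.0 in IL-6 High. For both genes TNF replicate 5 and IL-6 High replicate 4 were high and the other 9 arrays lay between 3.79 and 4.95. The differences were 0.58 (SE 0.70, exact permutation p = 0.494) for Tph2 and 0.68 (SE 0.72, exact permutation p = 0.385) for Slc6a4, and without TNF replicate 5 they were -0.26 and -0.17. That removal left the high array of the IL-6 High group in place. Without IL-6 High replicate 4 instead, the difference of Slc6a4 was 1.17. On TNF replicate 5 and IL-6 High replicate 4 the list of 12 raphe markers deviated by 1.07 and 0.68. That list includes Tph2 and Slc6a4 themselves, so its deviation is not separate from theirs. The part of these cells in the difference was not tested. In the list of serotonin synthesis, transport and breakdown, 10 of 12 genes had the higher mean in TNF (median 0.11), and 5 did without TNF replicate 5 (median -0.02). Without both high arrays, 6 of the 11 genes still tested did (median 0.05). Gch1, which makes the cofactor of the hydroxylases, differed by 0.31 (SE 0.15) and had the smallest p of that list. Of 13 serotonin receptor genes 5 had the higher mean in TNF (median -0.01).

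The dopamine transporter Slc6a3 stood at 9.97, 9.40, 9.13, 10.35 and 8.02 in TNF and 7.44, 8.64 and 10.22 (lowest, median and highest) in IL-6 High. Its difference of 0.71 (SE 0.45) was accompanied by 0.18 (SE 0.24) for the dopamine-synthesising enzyme Th, and exact permutation p values were 0.260 and 0.563. Of 13 markers of midbrain dopaminergic neurons, Slc6a3 and Th among them, 10 had the higher mean in TNF (median 0.31, and 0.15 without TNF replicate 5). The list deviated by 0.74 in TNF replicate 5 and 0.65 in IL-6 High replicate 4. Without both arrays, 11 of 13 of these markers had the higher mean in TNF (median 0.33). Nr4a2, a transcription factor of these neurons, differed by 0.31 (SE 0.11), and 0.33 (SE 0.10) without these 2 arrays. Of 11 genes of dopamine synthesis, transport and reception 9 had the higher mean in TNF (median 0.19, and 0.05 without TNF replicate 5). Without both arrays, 8 of 11 did (median 0.18).

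Many genes past a fold of 1.5 are known markers of regions or tissues around the hypothalamus. Of the 21 genes, 13 were on a marker list, 1 of them (Crym) on that of tanycytes, against 228 of all 14606 genes tested (1.56%). The marker lists were chosen with earlier results of these data known, so these shares are a description and not a test. The highest value was on TNF replicate 5 for 10, TNF replicate 6 for 5, TNF replicate 2 for 3, IL-6 High replicate 1 for 2 and IL-6 High replicate 3 for 1. Slc17a7, the vesicular glutamate transporter of cortical, thalamic and cerebellar neurons, had the largest difference, 1.54 (SE 0.52, a fold of 2.91). It stood at 6.48, 7.59, 6.26, 9.13 and 9.53 in TNF and 5.24, 6.68 and 6.78 (lowest, median and highest) in IL-6 High, so that 3 TNF arrays lay above all IL-6 High arrays and the other 2 among them (unadjusted p 0.00961, adjusted p 1.00 by limma). When single arrays were left out, the difference of Slc17a7 was at least 1.11, the lowest without TNF replicate 6. Ttr, the thyroid hormone carrier of the choroid plexus, differed by 0.87 (SE 0.35), with 7.38 in TNF replicate 2, and by 0.52 without that array. Cbln3 and Neurod1, genes of cerebellar granule cells, differed by 0.71 (SE 0.66) and 0.73 (SE 0.45), and by -0.11 and 0.13 without TNF replicate 2. Cbln3 was also high on IL-6 High replicate 6 (6.47), without which it differed by 1.09. The glycine transporter Slc6a5 of hindbrain and spinal cord differed by 0.71 (SE 0.54), and by -0.02 without TNF replicate 5. Abi3bp, an extracellular matrix gene, differed by 0.78 (SE 0.45), and by 0.14 without TNF replicate 6. Slc10a4, a vesicular transporter of monoaminergic neurons, differed by 0.71 (SE 0.37) and the nicotinic receptor subunit Chrna5 by 0.71 (SE 0.30), and both by 0.40 without TNF replicate 5.

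In the other direction stood Oxt and the pituitary hormones growth hormone and prolactin. Gh had values of 5.88, 4.99, 5.56, 6.83 and 9.17 in TNF and 4.79, 7.06 and 10.52 (lowest, median and highest) in IL-6 High, a difference of -1.08 (SE 1.02). Prl had 3.88, 3.25, 4.05, 4.06 and 6.27 in TNF and 3.54, 4.87 and 8.13 in IL-6 High, a difference of -1.03 (SE 0.72). Both were highest on IL-6 High replicates 1 and 4, followed by TNF replicate 6 and IL-6 High replicate 3, and without IL-6 High replicate 1 the differences were -0.49 and -0.47. Of 11 pituitary markers, Gh and Prl among them, 8 had the higher mean in IL-6 High (median difference -0.18, and 0.00 without that array). The part of pituitary tissue in these values was not tested.

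**Figure D5:**
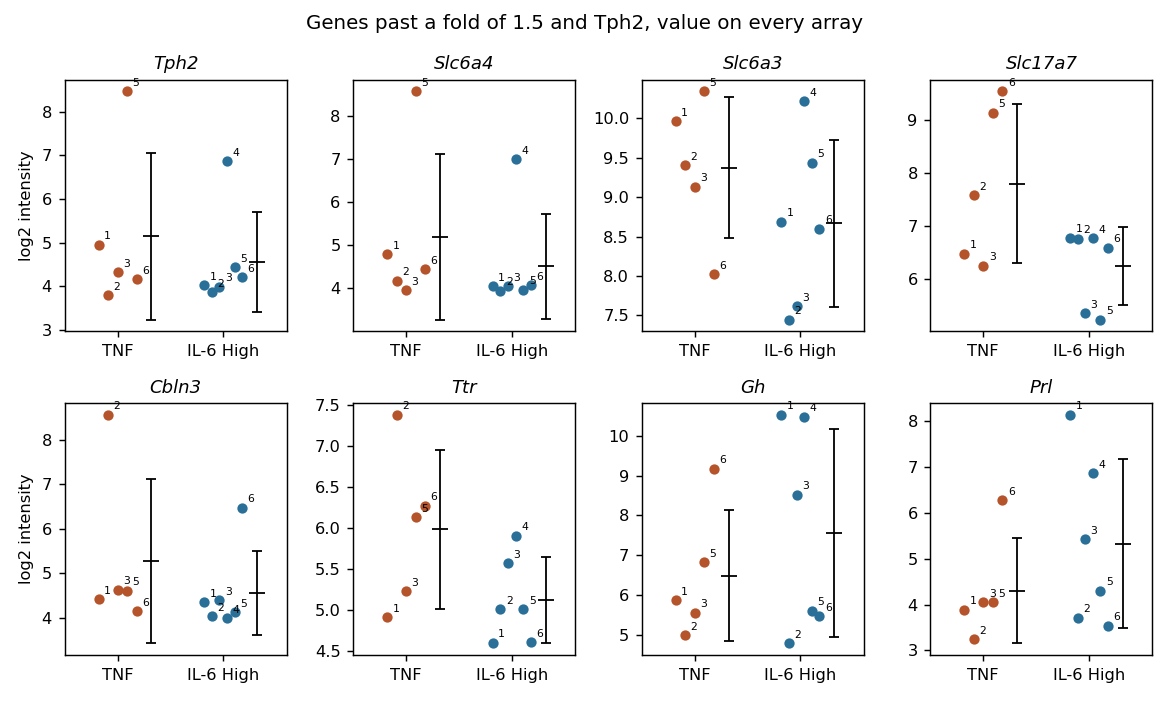
Log2 intensity (vertical) of Tph2, whose difference was just under a fold of 1.5, and of 7 genes past it, on each TNF (red) and IL-6 High (blue) array, numbered by replicate, with the group mean ± SD (black). Tph2 and Slc6a4 were highest on TNF replicate 5, Cbln3 on TNF replicate 2, and Gh and Prl on IL-6 High replicates 1 and 4. Slc17a7 was high on several TNF arrays (7.59, 9.13 and 9.53 on replicates 2, 5 and 6), and Slc6a3 varied within both groups.

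The genes of smallest p had smaller differences with smaller standard errors. Higher in IL-6 High were Kcnmb1, Tmem8b, Arhgap8, Rhbdd2, Ly6e, Oxt, Mustn1, Prr5, Ttll9, Zkscan7, Zfhx3 and Susd2. Kcnmb1, the accessory subunit of large-conductance calcium-activated potassium channels in smooth muscle, stood at 4.79, 4.60, 4.83, 4.97 and 5.03 in TNF and 5.03, 5.27 and 5.50 (lowest, median and highest) in IL-6 High, so that the groups touched at a single value. Its difference was -0.45 (SE 0.11, unadjusted p 0.000988, adjusted p 1.00 by limma). Tmem8b, a membrane protein gene, stood at 7.10, 7.08, 7.10, 6.99 and 7.11 in TNF and 7.28, 7.33 and 7.43 in IL-6 High, without overlap, a difference of -0.26 (SE 0.07). Arhgap8 did not overlap either (-0.36, SE 0.10), and Zfhx3, a transcription factor of the suprachiasmatic nucleus, differed by -0.29 (SE 0.09).

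Higher in TNF were Ankrd33b, Rsl1, Usp3, Rnf125, Bmi1, Ephx4, Ntn1, Rasl11b, Inhba, Cyp39a1, Caln1 and Frmd7. Ankrd33b had the smallest p of all genes (unadjusted p 0.000918 by limma), with values of 4.85, 5.04, 4.90, 5.13 and 5.42 in TNF and 4.30, 4.50 and 4.88 (lowest, median and highest) in IL-6 High, where only replicate 1 reached the range of TNF. Its difference was 0.51 (SE 0.13). Usp3, a histone deubiquitinase, stood at 7.11, 7.72, 7.18, 7.24 and 7.41 in TNF and 6.87, 6.96 and 7.06 in IL-6 High, a difference of 0.37 (SE 0.10) without overlap. Bmi1, a Polycomb protein gene, also did not overlap (0.34, SE 0.10), nor did Frmd7 (0.62, SE 0.20), whose TNF replicate 6 stood at 6.07 against 4.63 to 4.89 in the other TNF arrays. Rnf125, a ubiquitin ligase of antiviral signalling, differed by 0.48 (SE 0.13) and the activin subunit Inhba by 0.44 (SE 0.14). All 24 genes had an adjusted p of 1.00 by limma.

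A pair of groups that shares no array with this comparison, TNF + IL-6 Low minus IL-6 Low, gave a second set of values for the same genes. Both groups of that pair received the low dose of IL-6, so it shows TNFα added to IL-6. It does not set TNFα against high IL-6, and an effect of the high dose enters only the main comparison. Equal or opposite signs are therefore a description and not a repeat of the comparison. There, too, 0 genes passed the adjusted threshold of limma. Of the 24 genes of smallest p, 18 had the same sign in that pair (75%), against 61.1% of the 398 genes at an unadjusted p under 0.05 and 54.8% of all 14606 genes. This was so for 10 of 12 of those higher in IL-6 High, against 59.7% of all genes lower in TNF, and for 8 of 12 of those higher in TNF, against 50.9% of all genes higher there. Kcnmb1 differed by -0.37 (SE 0.10) in that pair, Rnf125 by 0.49 (SE 0.18), Prr5 by -0.23 (SE 0.11), Pnoc by -0.29 (SE 0.12) and Hcrt by -0.39 (SE 0.21). The difference of Oxt there was -0.21 (SE 0.20), that of Ankrd33b 0.08 (SE 0.11) and that of Usp3 0.11 (SE 0.10), while Arhgap8 at 0.02 (SE 0.12) and Vip at -0.03 (SE 0.10) had the opposite sign. Of the 13 genes named for the largest differences, 4 had the same sign, and Gh and Prl differed by 1.61 (SE 1.21) and 1.62 (SE 1.16), opposite to their differences between TNF and IL-6 High.

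Immediate early genes, which mark recent neuronal activity, had the higher mean in TNF for 17 of 17 members (median difference 0.15, against 0.01 over all genes). Without TNF replicate 6 this held for 11 of 17 (median 0.03). Arc stood at 6.24, 6.20, 6.17, 7.35 and 7.65 in TNF and 5.94, 6.23 and 6.37 (lowest, median and highest) in IL-6 High, a difference of 0.52 (SE 0.24, unadjusted p 0.0437 by limma) with TNF replicates 5 and 6 above all other arrays. Fos differed by 0.23 (SE 0.13) and Nr4a3 by 0.35 (SE 0.20). On TNF replicate 6, where this list deviated by 0.64, the striatal and cortical marker lists deviated by 1.13 and 0.62, and their part in the difference was not tested.

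Of 16 glucocorticoid response genes 11 had the higher mean in IL-6 High (median difference -0.03), but 8 of 16 did without TNF replicate 3 (median 0.01). Of the 16, 2 were higher in IL-6 High at an unadjusted p under 0.05, against 1.29% of all genes. These were Zbtb16, a hormone-induced transcriptional repressor (-0.35, SE 0.13), and Hif3a, a hypoxia-inducible factor (-0.35, SE 0.16). Sgk1, a kinase induced by corticosteroids, differed by -0.35 (SE 0.27) and Dusp1 by 0.24 (SE 0.11) in the opposite direction. Of 16 genes of TGF-β response and extracellular matrix 13 had the higher mean in TNF (median 0.08), and 11 did without TNF replicate 6 (median 0.04). Ltbp2 at 0.22 (SE 0.10), Tgfb3 at 0.34 (SE 0.15) and Col3a1 at 0.20 (SE 0.09) were higher in TNF at an unadjusted p under 0.05, 3 of 16 against 1.43% of all genes, and Tgfb3 differed by 0.18 without TNF replicate 5. On TNF replicate 6 this list deviated by 0.205 and the meningeal fibroblast markers, which also hold Col1a1, Col1a2 and Col3a1, by 0.649. The part of these cells in the difference was not tested. The clock gene Cry1 differed by 0.20 (SE 0.09), and 13 of 17 clock genes had the higher mean in TNF (median 0.05), or 9 of 17 without TNF replicate 6, while the median was 0.00 without IL-6 High replicate 5. Pla2g4a, the phospholipase that frees arachidonic acid for prostaglandin synthesis, differed by 0.48 (SE 0.17), with Ptgs2 at 0.25 (SE 0.19) and 10 of 14 genes of the prostaglandin list higher in TNF (median 0.05, and 0.02 without IL-6 High replicate 2). Without TNF replicate 6 the difference of Ptgs2 was 0.01. All 5 tested kynurenine pathway genes had the higher mean in IL-6 High (median -0.06), though 2 of the 5 were higher in TNF without TNF replicate 2. So did 14 of 20 hypothalamic transcription factors (median -0.08, and -0.02 without IL-6 High replicate 3). The higher mean was in TNF for 9 of 15 SRF and MRTF targets (median 0.06), and for 7 of 15 without TNF replicate 6 (median -0.04). It was in TNF for 5 of 6 MHC class II genes (median 0.09), and for 4 of 6 without TNF replicate 5 (median 0.02).

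Among the remaining cell types, 16 of 18 microglial and macrophage genes had the higher mean in TNF (median difference 0.12), against 55.4% of all genes. Of the 18, 0 were at an unadjusted p under 0.05 by limma, against 1.43% of all genes higher in TNF and 1.29% higher in IL-6 High. The median was 0.06 without IL-6 High replicate 1, and 0.07, with 14 of 18 genes, without TNF replicate 5. The list had a mean deviation of -0.13 to 0.22 in TNF and -0.19 to 0.02 in IL-6 High. The counts were 10 of 13 astrocyte genes (median 0.05, and 0.01 without TNF replicate 5), 11 of 16 oligodendrocyte genes (0.03, with 4 of 16 and -0.06 without TNF replicate 5), 7 of 13 neuronal genes (0.01), 6 of 16 endothelial genes (-0.01, with 12 of 16 and 0.05 without TNF replicate 5), 3 of 12 genes of smooth muscle cells and pericytes (-0.08, with -0.02 without TNF replicate 2 and -0.16 without TNF replicate 6) and 8 of 15 genes of tanycytes and ependymal cells (0.02). In the last list Dio2, the thyroid hormone-activating deiodinase of tanycytes, differed by 0.39 (SE 0.16), and Dnah12 and Dnah5 by -0.30 and -0.20 in the opposite direction. Of its 15 genes, 1 was higher in TNF and 1 higher in IL-6 High at an unadjusted p under 0.05 by limma, against 1.43% and 1.29% of all genes. Of 26 meningeal fibroblast genes 22 had the higher mean in TNF (median 0.11), and 10 did without TNF replicate 6 (median -0.06). Aldh1a2, a retinoic acid-synthesising enzyme of these cells, differed by 0.06. Of 8 blood cell genes 7 had the higher mean in TNF (median 0.11), and 3 did without TNF replicate 5 (median -0.05). The counts were 14 of 17 for cerebellum (median 0.37, and 0.05 without TNF replicate 2), 8 of 9 for striatum (0.27, and 0.01 without TNF replicate 6), 11 of 17 for cortex, hippocampus and thalamus (0.02, with 8 of 17 and -0.00 without TNF replicate 6, and a median of -0.04 without IL-6 High replicate 5), 4 of 4 for hindbrain and spinal cord (0.14, with 3 of 4 and 0.05 without TNF replicate 5), 10 of 12 for raphe (0.15, and -0.03 without TNF replicate 5) and 7 of 12 for choroid plexus (0.06, and -0.01 without IL-6 High replicate 4). Raphe markers were also high on IL-6 High replicate 4. Without that array and TNF replicate 5, 7 of the 11 raphe genes still tested had the higher mean in TNF (median 0.15). For oligodendrocytes it was then 8 of 16 (median -0.00). In the cortical list Neurod2 differed by 0.47 (SE 0.17), with 6.21 in TNF replicate 6 against 5.10 to 5.37 in the other TNF arrays.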

How the data were processed

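The authors deposited RMA values on the log2 scale (RMA version not given in the sources used here) of Affymetrix Mouse Gene 1.1 ST arrays. Of 35556 transcript clusters, 21218 name 1 gene, 1881 several and 12457 none; the cluster of highest mean stood for each of 18820 genes, of which 14606 exceeded an intensity of 20 on at least 3 of 11 arrays. The study left out 1 TNF array that it does not name, and here TNF replicate 4 was left out.

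Groups were compared with limma 3.58.1 in R 4.3.3 (eBayes with an intensity trend, no covariates), with Benjamini-Hochberg adjustment over 14606 genes. Differences are TNF minus IL-6 High. The number of arrays limits the precision. The fit was run on simulated data with noise drawn separately for each gene, so shifts shared by many genes on an array were not covered. The members and lists were chosen with earlier results of these data known. Named were a panel of 22 genes, of which 1 had no cluster of its own and was not analysed here, the 12 genes of smallest p and up to 10 of largest difference past a fold of 1.5 in each direction, and up to 4 genes of smallest p per list, without predicted genes, receptor segments and small RNAs. Alternatives covered the array left out, filter, scaling, array weights, statistic, gene summary, joint fit, blocks and each array in turn. In the joint fit of all 6 groups, saline included, the other groups entered only the estimate of the variance.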

Additional observations from a re-analysis of the deposited data

Results flagged for a closer look

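In 22 of 154 groups of values of the named genes, and in 10 of 74 groups of list scores, a single array lay apart from the others of its group by Dixon's criterion. The criterion marks about 1 in 20 groups by chance. The genes were partly chosen for large differences or small p, and the lists with earlier results known, so these counts cannot be read against that rate. Of the genes, 8 were marked on TNF replicate 6, 5 on TNF replicate 5, 3 on TNF replicate 2, 3 on IL-6 High replicate 4, 2 on IL-6 High replicate 6 and 1 on IL-6 High replicate 2.

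TNF replicate 5 stood apart for Tph2 (8.47 log2 intensity), Slc6a4 (8.58), Slc6a5 (7.85), Gfap (9.70) and, on the low side, Tmem8b (6.99). Its list scores, the mean log2 deviation from the 11-array mean, stood apart for raphe (1.073), hindbrain (1.061) and blood cell markers (0.662). IL-6 High replicate 4 stood apart for Tph2 (6.86), Slc6a4 (7.0) and Dio2 (7.35), and for the scores of raphe markers (0.679), serotonin synthesis (0.442) and oligodendrocytes (0.336).

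TNF replicate 6 stood apart for Abi3bp (8.42), Ephx4 (7.32), Inhba (7.23), Ptgs2 (6.82), Nr4a3 (6.5), Prl (6.27), Neurod2 (6.21) and Frmd7 (6.07). Its scores stood apart for striatum (1.134), immediate early genes (0.641), cortex, hippocampus and thalamus (0.622) and serotonin receptors (0.238).

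TNF replicate 2 stood apart for Cbln3 (8.57), Neurod1 (8.44) and, on the low side, Pomc (5.74). IL-6 High replicate 6 stood apart for Cbln3 (6.47) and Ly6e (9.74), and IL-6 High replicate 2, on the low side, for Mustn1 (5.97).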

How the results depend on the processing

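Under each of 24 alternatives, 0 genes passed the adjusted threshold of limma. The number of genes at an unadjusted p under 0.05 was 209 higher in TNF and 189 higher in IL-6 High. With TNF replicate 4 it was 58 and 31, with 83 and 827 genes past a fold of 1.5 and 7 and 11 whose groups did not overlap, and the median difference of all genes was -0.12. Without a filter, 323 genes were higher in TNF at an unadjusted p under 0.05 and 23 higher there without overlap. With a minimum intensity of 50, 110 were higher in IL-6 High and 13 without overlap. After median centring, 101 were higher in IL-6 High and 10 without overlap, and 68.9% of the genes at an unadjusted p under 0.05 were higher in TNF, against 52.5%. Array weights gave 319 higher in TNF and 284 higher in IL-6 High, with 10 past a fold of 1.5 in TNF. Without TNF replicate 5 and IL-6 High replicate 4, an alternative chosen after seeing the data, 92 and 83 genes did not overlap. When single arrays were left out, genes at an unadjusted p under 0.05 numbered 127 (without IL-6 High replicate 6) to 511 (without TNF replicate 3) higher in TNF and 146 to 283 higher in IL-6 High. Those past a fold of 1.5 numbered 12 to 37 and 1 to 4, the 1 without IL-6 High replicate 1. Those without overlap numbered 13 to 80 and 32 to 66, where smaller groups overlap less often by construction.

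Arrays with the same replicate number did not deviate together, with correlations of -0.215 to 0.169, and 0 of 5 correlated best with its own number. The fit with a replicate block also left out IL-6 High replicate 4, which had no partner in TNF. It gave 344 genes higher in TNF at an unadjusted p under 0.05, against 372 without that array and no block. Then 56 and 35 genes did not overlap, with or without the block.

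With a minimum intensity of 50, no gene of the hindbrain list or the MHC class II list was left. Of 77 named genes, 19 changed sign under some alternative, and 0 passed the adjusted threshold. With TNF replicate 4 the differences were -0.16 for Npy, -0.10 for Il6ra, -0.34 for Il6st, -0.40 for Stat3, 0.31 for Socs3, 0.11 for Tnfrsf1a, 0.089 for Tnfrsf1b, -0.0077 for Aldh1a2, -0.14 for Th, -0.0158 for Rsl1, -0.0435 for Dusp1, -0.089 for Cry1 and -0.34 for Gfap. Socs3 differed by 0.0116 after median centring, 0.0105 after quantile normalization and 0.0099 with the array name letter as a block. Tnfrsf1a differed by 0.003 after median centring. Array weights gave -0.034 for Il6ra, -0.0739 for Lcn2 and -0.19 for Aldh1a2. With the replicate block, and equally without IL-6 High replicate 4 alone, Tnfrsf1a differed by 0.0313 and Aldh1a2 by -0.0005. Aldh1a2 differed by -0.0819 without the arrays of highest raphe score, where Il6ra differed by -0.0256. Leaving out single arrays gave -0.26 to 1.04 for Tph2, -0.17 to 1.17 for Slc6a4, -0.0354 to 0.058 for Il6ra, -0.0494 to 0.0473 for Socs3, -0.0724 to 0.0507 for Tnfrsf1a, -0.0786 to 0.0114 for Ikbkg, -0.18 to 0.30 for Lcn2, -0.14 to 0.25 for Aldh1a2, -0.11 to 1.09 for Cbln3 and -0.0235 to 1.00 for Slc6a5. Where no array or gene was left out, the cause of these moves was not tested.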
